A study of Mus musculus with 4 samples.

Results

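The Id genes and the BMP response genes beside them are 8 genes, taken by symbol from the 25804 symbols that the 4 libraries list. They are the transcriptional regulators Id1, Id2, Id3 and Id4, the Smads Smad6 and Smad9, the receptor gene Bmpr1a and the ligand gene Bmp4. Their Ensembl identifiers in the files are, in that order, ENSMUSG00000042745, ENSMUSG00000020644, ENSMUSG00000007872, ENSMUSG00000021379, ENSMUSG00000036867, ENSMUSG00000027796, ENSMUSG00000021796 and ENSMUSG00000021835. All 8 had UMIs in every library. They were followed in cells grouped, by the cells' own counts, into Pax7-positive, Myog-positive, cycling and remaining cells.

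All cells carried the Pax7-nGFP allele, whose green nuclear protein reports Pax7, the factor by which satellite cells, the stem cells of muscle, are recognised. Single-cell RNA was counted in 1 library per group, so there is no replicate and no p-value, and library, animals and group cannot be told apart. Myogenic progenitor cells (MPC) were myoblasts of 2 passages that were then grown for 5 passages in another medium with 5 µM Forskolin, which raises cAMP, 5 µM Repsox, a TGF-beta receptor inhibitor, and 3 µM of a CHIR compound, a GSK3 inhibitor. Myoblasts were taken at passage 2. Each culture derived from 1 male mouse aged 16 weeks. Neither culture was sorted, both had 10 ng/ml basic FGF in their media, and their media also differed in base medium and serum. Activated satellite cells (ASC) came from 17 tibialis anterior muscles, sorted for GFP, of male and female mice aged 18 to 24 weeks, 3 days after injury with 10 µM cardiotoxin. Freshly isolated satellite cells (fiSC), also sorted for GFP, came from the pooled limb muscles of 3 male mice aged 13 weeks. Both sorted libraries went through collagenase digestion of minced muscle, and the cultures were collected with trypsin.

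Bone morphogenetic proteins (BMPs) such as the Bmp4 product bind receptor complexes that include Bmpr1a. The receptors phosphorylate Smad1, Smad5 and the Smad9 product, which enter the nucleus with Smad4 and switch on target genes. Smad6 is such a target and inhibits the same receptors. Id1 to Id3 are the classical direct BMP targets, and Id proteins bind E proteins (encoded by Tcf3, Tcf4 and Tcf12), which are then not free to pair with myogenic factors such as Myod1. In muscle, Id proteins are known for holding back differentiation, and BMP signalling for keeping satellite cells dividing. Id genes also answer to other inputs, among them serum growth factors.

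The windows of 250 bases before to 50 after the start site are shown for Id3, which was called between Myog-positive and Pax7-positive cultured cells, for Id2, which was called there in non-cycling cells alone, for Smad6, the inhibitor among the BMP targets, and for the ligand Bmp4. Sequences are from RefSeq on build GRCm38.p6, while the libraries were counted on GRCm39. Windows were matched by symbol for 7 of the 8 genes, all but Id1. Capitals mark matches, on either strand, to GGCGCC or GGAGCC, both described as the Smad1 and Smad5 part of BMP elements, or to the Smad palindrome GTCTAGAC. In the order Id2, Id3, Smad6 and Bmp4, the windows lie at chr12:25096043-25096342, minus strand, chr4:136143572-136143871, plus strand, chr9:64022010-64022309, minus strand, and chr14:46390620-46390919, minus strand.
Id2: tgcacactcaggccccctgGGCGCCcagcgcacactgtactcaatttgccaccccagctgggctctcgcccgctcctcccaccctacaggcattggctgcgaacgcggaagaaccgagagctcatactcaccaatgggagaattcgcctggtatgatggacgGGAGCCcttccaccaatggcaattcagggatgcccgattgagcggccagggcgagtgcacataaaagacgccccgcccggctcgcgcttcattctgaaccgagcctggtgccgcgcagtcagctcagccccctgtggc
Id3: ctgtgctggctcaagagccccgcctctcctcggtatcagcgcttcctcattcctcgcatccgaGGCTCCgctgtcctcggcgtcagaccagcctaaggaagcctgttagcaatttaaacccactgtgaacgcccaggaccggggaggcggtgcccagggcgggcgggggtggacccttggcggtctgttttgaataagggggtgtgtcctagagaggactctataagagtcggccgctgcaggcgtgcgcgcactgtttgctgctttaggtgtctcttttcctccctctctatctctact
Smad6: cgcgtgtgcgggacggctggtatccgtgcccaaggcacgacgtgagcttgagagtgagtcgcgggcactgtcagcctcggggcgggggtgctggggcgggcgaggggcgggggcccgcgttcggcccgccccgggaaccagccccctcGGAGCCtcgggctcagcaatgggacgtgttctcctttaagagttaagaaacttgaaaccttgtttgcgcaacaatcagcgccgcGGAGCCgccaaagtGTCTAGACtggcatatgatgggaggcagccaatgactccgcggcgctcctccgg
Bmp4: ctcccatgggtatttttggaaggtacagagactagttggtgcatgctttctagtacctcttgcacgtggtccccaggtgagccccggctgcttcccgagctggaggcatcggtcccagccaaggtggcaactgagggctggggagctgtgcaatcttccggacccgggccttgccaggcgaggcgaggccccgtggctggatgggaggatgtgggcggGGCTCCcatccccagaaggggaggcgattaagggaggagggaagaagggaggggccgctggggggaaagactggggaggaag

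GGAGCC was found in 6 of the 7 windows and GGCGCC in 4. Among 32851 windows of the same length, GGAGCC was in 30.8% and GGCGCC in 11.9%, so these short words are common. GTCTAGAC, present in 0.213% of all windows, was found in the Smad6 window alone, at position -4, with negative positions counted back from the start site. In the Id2 window GGCGCC began at -231 and GGAGCC at -88, in the Id3 window GGAGCC began at -187, and in the Bmp4 window at -32. The cAMP element TGACGTCA (1.79% of all windows) and the Egr motif GCGGGGGCG (2.91%) were in 0 of the 7 windows. The E-box CANNTG, in 72.3% of all windows, was in 4 of the 7 (Id2, Smad6, Smad9 and Bmp4). A match is a description of letters and does not show a bound site.

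After filtering, 9096 MPC, 2365 myoblast, 6446 ASC and 2192 fiSC cells were kept, with median UMIs (counted molecules) of 13236, 22911, 19810.5 and 8769. Cells with at least 2000 UMIs were thinned to 2000 for the class calls. Pax7-positive cells (at least 1 Pax7 and 0 Myog UMIs) numbered 4689 in MPC, 1644 in myoblasts, 596 in ASC and 1398 in fiSC. Myog-positive cells (at least 1 UMI of Myog, a transcription factor of differentiating muscle cells) numbered 2329, 333 and 105 in the first 3 of these libraries and 5 in fiSC, too few to describe. Cells with at least 2 UMIs of 23 G2/M genes made up 67.9% of Pax7-positive MPC, 56.2% of myoblasts, 84.6% of ASC and 1.07% of fiSC (15 cells). These classes are ranges of counts and not cell types. Of the 596 Pax7-positive ASC cells, 466 had exactly 1 Pax7 UMI, and 2056 ASC cells had neither Pax7 nor Myog UMIs. In ASC, 3049 of 5806 cells had at least 10 UMIs of 14 macrophage genes and were set apart, although the library came from a GFP sort. The 7 muscle progenitor markers summed to 1940, 2718, 963 and 3054 CPM (UMIs per 1000000 UMIs of the class) in Pax7-positive MPC, myoblasts, ASC and fiSC, with 6, 6, 6 and 7 of them at 10 CPM or more. MPC and myoblasts shared 164 deposited barcodes, 11 of them among kept cells, and MPC and ASC shared 18 kept barcodes. Leaving out shared barcodes altered no call named below.

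Bmp4, the ligand, was a gene of fresh satellite cells. Its level in Pax7-positive cells was 0.743 CPM in MPC (51 UMIs), 1.06 CPM in myoblasts (42 UMIs), 5.14 CPM in ASC (124 UMIs) and 148 CPM in fiSC (1940 UMIs). The exact Poisson 95% intervals, which cover counting error only, ran from 0.553 to 0.976 in MPC, 0.765 to 1.44 in myoblasts, 4.27 to 6.13 in ASC and 142 to 155 CPM in fiSC. The 2 cultures overlapped within counting error, and ASC and fiSC each lay apart from every other library. Of thinned Pax7-positive cells, 0.128% of MPC, 0.304% of myoblasts, 1.51% of ASC and 22.2% of fiSC had a Bmp4 UMI, and at full depth 46.8% of fiSC cells had one. In macrophage-high ASC cells the share was 0.0328%. Median depths before thinning were 15901 UMIs in these cells and 40935.5 in Pax7-positive ASC. Outside the Pax7-positive class, Bmp4 was at 6.13 CPM in the remaining MPC cells, with neither Pax7 nor Myog UMIs, and at 122 CPM in the remaining fiSC cells.

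Bmpr1a, the receptor gene, varied little. Pax7-positive cells had 142 CPM in MPC (interval 140 to 145), 119 in myoblasts (115 to 122), 101 in ASC (97.5 to 106) and 149 in fiSC (142 to 156). MPC and fiSC overlapped at the top, and ASC was lowest. A UMI of Bmpr1a was seen in 23.2%, 19.2%, 21.1% and 21.9% of thinned cells in the same order, and in 0.951% of macrophage-high ASC cells.

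The Smad genes were sparse. Smad6, the inhibitory Smad, was at 7.83 CPM in Pax7-positive MPC, 9.99 in myoblasts, 2.78 in ASC and 8.47 in fiSC, on 538, 395, 67 and 111 UMIs. The fiSC interval, 6.97 to 10.2 CPM, overlapped those of both cultures, and the ASC interval, 2.15 to 3.53 CPM, lay below all others. The remaining cells of the cultures had more Smad6 than the Pax7-positive cells, at 11.3 CPM in MPC and 15.5 CPM in myoblasts. Smad9, a signal-carrying Smad, had 34, 86, 27 and 10 UMIs in Pax7-positive cells, or 0.495, 2.17, 1.12 and 0.763 CPM. The fiSC interval, 0.366 to 1.40 CPM, overlapped those of MPC and ASC, so no difference from fiSC was detectable at this depth in these libraries. The myoblast interval, 1.74 to 2.69 CPM, lay above the others.

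**Figure D1:**
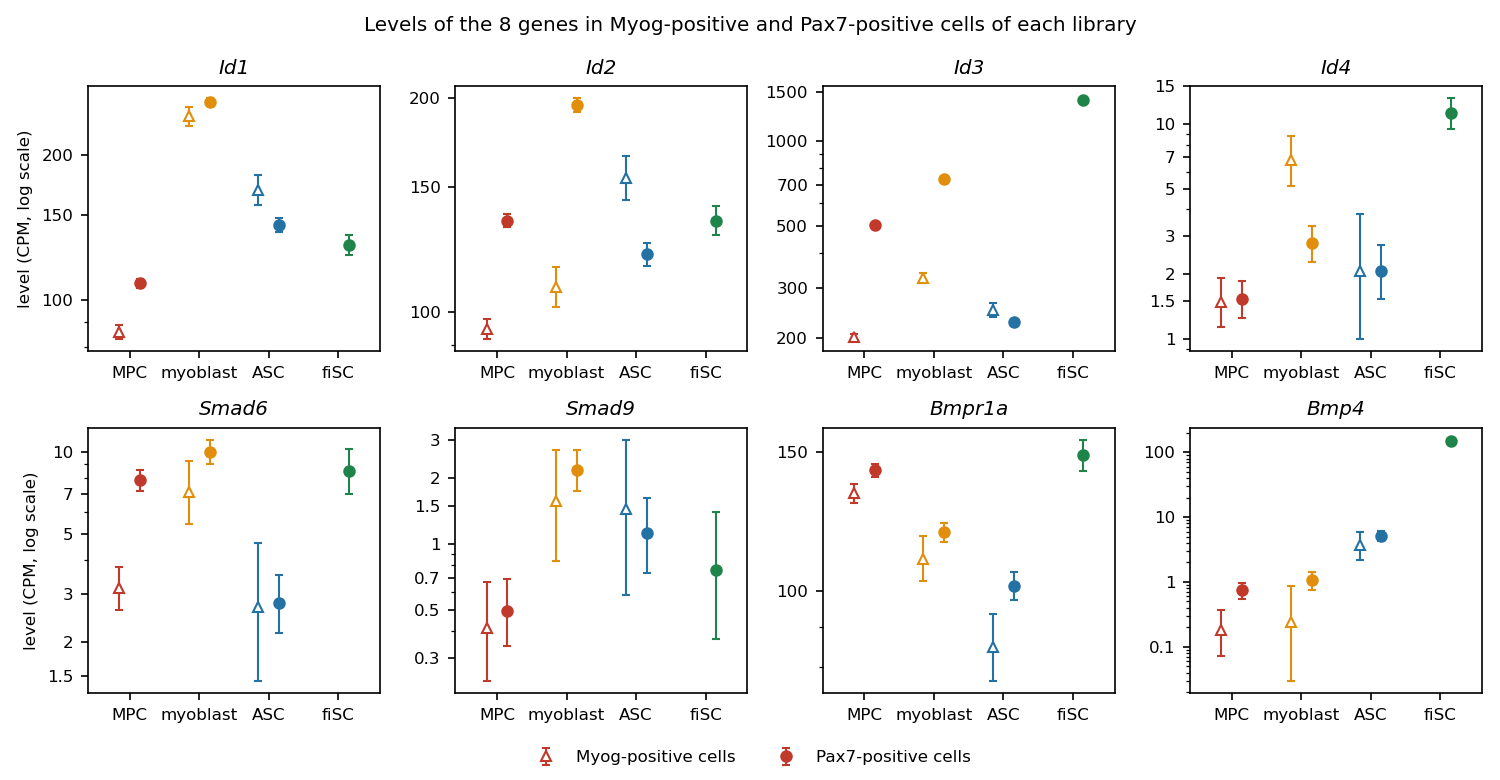
Level of each of the 8 genes (CPM, log scale, a scale of its own in each panel) in Myog-positive cells (open triangles) and Pax7-positive cells (filled circles) of the MPC, myoblast, ASC and fiSC libraries. Bars are exact Poisson 95% intervals and cover counting error only; fiSC have no triangle because 5 cells were Myog-positive. Bmp4 and Id3 are highest in fiSC, at 148 and 1401 CPM, and Id1 is highest in myoblasts, at 257 CPM.

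Among the targets, Id1 was highest in myoblasts. Pax7-positive cells had 108 CPM of Id1 in MPC (106 to 111), 257 in myoblasts (252 to 262), 143 in ASC (138 to 148) and 130 in fiSC (124 to 137). No 2 of these intervals overlapped. A UMI of Id1 was seen in 17.7% of MPC, 36.2% of myoblasts, 23.5% of ASC and 16.7% of fiSC after thinning, against 1.48% of macrophage-high ASC cells.

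Id2 differed less. Its Pax7-positive levels were 135 CPM in MPC (132 to 137), 196 in myoblasts (191 to 200), 121 in ASC (116 to 125) and 134 in fiSC (128 to 141), with MPC and fiSC overlapping. Macrophage-high ASC cells had 378 CPM of Id2 (372 to 383), and 45.7% of them had a UMI of it, against 21.5% of Pax7-positive ASC cells. Macrophage RNA therefore carries Id2. The 14 macrophage markers summed to 164 CPM in Pax7-positive ASC, with 5 of 14 at 10 CPM or more and none at 0, against 35340 CPM in macrophage-high cells, 8.84 CPM in MPC, 11.4 in myoblasts and 8.01 in fiSC. Its part in the ASC level of Id2 was not tested.

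Id3 spanned a wider range than Id1 and Id2. Pax7-positive cells had 504 CPM in MPC (499 to 510), 733 in myoblasts (725 to 742), 226 in ASC (220 to 232) and 1401 in fiSC (1381 to 1422). The 4 libraries were apart beyond counting error. The share of thinned cells with a UMI was 56.7% in MPC, 68.7% in myoblasts, 32.9% in ASC and 60.7% in fiSC. Fresh cells thus had the highest level but not the highest share. Their counts were uneven, with a variance over mean of 7.07 and up to 49 Id3 UMIs of 2000 in a cell, while the ratio was 1.50 in MPC and 1.34 in myoblasts. The ratio was 1.65 in cycling Pax7-positive ASC and 12.0 in the 92 non-cycling ones, where the highest cell had 34 Id3 UMIs of 2000. In the remaining fiSC cells Id3 was at 706 CPM.

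Id4 was sparse outside fresh cells. It had 105 UMIs in Pax7-positive MPC (1.53 CPM), 110 in myoblasts (2.78 CPM), 50 in ASC (2.07 CPM) and 147 in fiSC (11.2 CPM). The ASC interval, 1.54 to 2.73 CPM, overlapped those of MPC and of myoblasts, and only the fiSC interval, 9.48 to 13.2 CPM, lay apart from all others.

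The question of the design, how cells in culture and after injury compare with fresh ones, was put to Pax7-positive cells of each pair of libraries. The rule for calling a gene was a 2-fold ratio of CPM plus 5, with 10 CPM or more in the higher class. Id1, Id2, Id3 and Bmpr1a reached that minimum in every pair, Id4 and Bmp4 only against fiSC and through fiSC, and Smad6 and Smad9 in none. In MPC against myoblasts, 1 of the 8 genes met it, Id1, with 2.37-fold less in MPC (interval 2.30 to 2.44, log2 ratio -1.21). Over all 9417 genes measured, 7.34% were lower in MPC by this rule and 7.92% higher. Of the 8 genes 4 were measured here, too few to set 1 call against that background. Id2 and Id3 were 1.45-fold lower each, and Bmpr1a was 1.20-fold higher. Among non-cycling cells alone the log2 ratio of Id1 was -1.66.

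In ASC against fiSC, Id3, Id4 and Bmp4 were lower in ASC. Bmp4 was 28.8-fold lower (24.0 to 34.8), Id3 6.19-fold lower (6.01 to 6.38) and Id4 5.42-fold lower (3.90 to 7.62). Across all 9086 genes measured, 21.4% were lower in ASC and 24.0% higher, so calls are common in this pair. Id1 and Id2 lay close to their fresh levels, with log2 ratios of 0.13 and -0.15, and Bmpr1a was at -0.53. Among non-cycling cells of both libraries, 92 and 1383 cells, the log2 ratios were -2.11 for Id3, -1.17 for Id4 and -3.40 for Bmp4. Genes of the fibroblast list summed to 37.9 CPM in ASC and 338 CPM in fiSC. Of its 10 genes, Dpt (143 CPM) and Gsn (185 CPM) made up most of the fiSC sum, against 0.456 and 28.5 CPM in ASC. Of the defining markers, Dcn was at 4.43 CPM in fiSC and 0.704 CPM in ASC, Lum at 2.44 and 0.332 CPM, and Pdgfra at 0 and 0.622 CPM. The part of fibroblast RNA was not tested. Without cells holding at least 3 UMIs of fibroblast, mural or endothelial markers, the log2 ratio of Bmp4 was -3.91 and that of Id3 -2.62.

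Both cultures differed from fresh cells in the same ligand and in Id4. Against fiSC, Bmp4 was 199-fold lower in MPC (151 to 269) and 139-fold lower in myoblasts (103 to 194). Id4 was 7.34-fold lower in MPC and 4.03-fold lower in myoblasts. Id3 was 2.78-fold lower in MPC (2.73 to 2.83), which met the rule, and 1.91-fold lower in myoblasts (1.88 to 1.95), which did not. The background shares of lower genes were 15.4% in MPC against fiSC and 17.4% in myoblasts against fiSC, with 28.4% and 28.1% higher. These contrasts use the same fiSC cells. With a pseudocount of 10 CPM Id4 was no longer called against fiSC, at log2 ratios of -0.88 in MPC, -0.73 in myoblasts and -0.81 in ASC.

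Against ASC, Id3 was 2.23-fold higher in MPC (2.17 to 2.29) and 3.24-fold higher in myoblasts (3.15 to 3.34). Id3 was the only one of the 8 to meet the rule in either contrast. Of all genes, 15.8% were higher and 6.61% lower in MPC, and 11.8% higher and 4.29% lower in myoblasts. The MPC call was not kept with TMM scaling (log2 ratio 0.96), with each cell weighted equally (0.74) or in non-cycling cells alone (0.48), where 92 ASC cells stood against 1505 MPC cells. In myoblasts the log2 ratio under these settings was 1.56, 1.24 and 1.23. Cycling Pax7-positive cells, 3184 in MPC and 504 in ASC, had 520 and 218 CPM of Id3. The rule was not applied to cycling cells alone in this pair. Id1 was 1.80-fold higher in myoblasts than in ASC, below the rule.

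Fewer Id3 molecules were counted in Myog-positive cells of both cultures. In MPC, Id3 was at 201 CPM in Myog-positive cells (197 to 206) and 504 CPM in Pax7-positive cells, 2.50-fold lower (2.44 to 2.57). In myoblasts, it was at 326 CPM in Myog-positive cells (313 to 338) and 733 CPM in Pax7-positive cells, 2.25-fold lower (2.16 to 2.34). Id3 was the only one of the 8 to meet the rule in each culture. The background shares were 7.35% lower and 5.31% higher in MPC, and 11.9% lower and 7.78% higher in myoblasts. Cycling cells made up 44.3% of Myog-positive MPC and 16.8% of Myog-positive myoblasts, against 67.9% and 56.2% of Pax7-positive cells. The part of cycling in these Id3 ratios was not tested. The calls rest on choices. In MPC the log2 ratio was -0.99 from cells of at least 5000 UMIs and at most 5% mitochondrial UMIs. In myoblasts it was -0.87 with classes called at 4000 UMIs and -0.88 with TMM scaling. Requiring 2 Myog UMIs gave -1.83 in MPC and -1.48 in myoblasts.

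Id2 stood below the rule, at 94.6 CPM in Myog-positive and 135 CPM in Pax7-positive MPC, and at 109 and 196 CPM in the same classes of myoblasts. With non-cycling cells alone Id2 also met the rule in both cultures. Non-cycling MPC had 62.2 CPM of Id2 in Myog-positive and 136 CPM in Pax7-positive cells, and 128 and 453 CPM of Id3. Non-cycling myoblasts had 85.6 and 189 CPM of Id2, and 283 and 765 CPM of Id3. Cycling MPC had 131 CPM of Id2 in Myog-positive and 134 CPM in Pax7-positive cells, and cycling myoblasts 243 and 200 CPM. The lower Id2 level was thus seen in non-cycling cells, and the difference between cycling and non-cycling cells was not tested. The cycling Myog-positive classes held 1032 MPC and 56 myoblasts. In cycling Pax7-positive cells Id3 was at 520 CPM in MPC and 713 CPM in myoblasts. The cycling Myog-positive cells had less Id3 than that in both cultures, but the difference stayed below the 2-fold rule. Id1 differed little, with 85.9 CPM in Myog-positive and 108 CPM in Pax7-positive MPC, and 240 and 257 CPM in myoblasts. Smad6 was at 3.16 CPM in Myog-positive MPC and 7.83 CPM in Pax7-positive MPC, both under 10 CPM. Bmp4 had 7 UMIs in Myog-positive MPC and 2 in Myog-positive myoblasts. Id4 was at 6.77 CPM in Myog-positive and 2.78 CPM in Pax7-positive myoblasts, on 56 and 110 UMIs.

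In ASC none of the 8 genes met the rule between Myog-positive and Pax7-positive cells, where 0.682% of all genes were higher and 0.207% lower. Id3 was at 250 CPM in the 105 Myog-positive cells (236 to 264) and at 226 CPM in Pax7-positive cells. Id1 was at 169 and 143 CPM, and Id2 at 155 and 121 CPM. Of these 105 cells, 80 had exactly 1 Myog UMI. The 10 markers of differentiating muscle summed to 866 CPM in them, against 12342 CPM in Myog-positive MPC and 30934 CPM in Myog-positive myoblasts. The class is thus not at a like stage in the 3 libraries.

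Graded by Myog UMIs, Id3 was lower with each step in MPC. Cells with 0, 1, 2, 3 and at least 4 Myog UMIs had 504, 307, 168, 135 and 111 CPM of Id3. In myoblasts the levels were 733, 444, 305 and 210 CPM at 0, 1, 2 and at least 4 UMIs, with fewer than 50 cells at 3. Id2 had 135, 125, 86.7, 73.7 and 67.1 CPM over the MPC bins, and 196, 150, 108 and 60.8 CPM over the myoblast bins. Id1 ran between 76.9 and 108 CPM in MPC and between 231 and 257 CPM in myoblasts. Id3 was thus lower at every step in both cultures beyond counting error. For Id2 the last pair of MPC bins overlapped, and the Id1 bins of myoblasts overlapped in part. In ASC, cells with 1 Myog UMI had 251 CPM of Id3 and Pax7-positive cells 226 CPM, the opposite order.

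**Figure D2:**
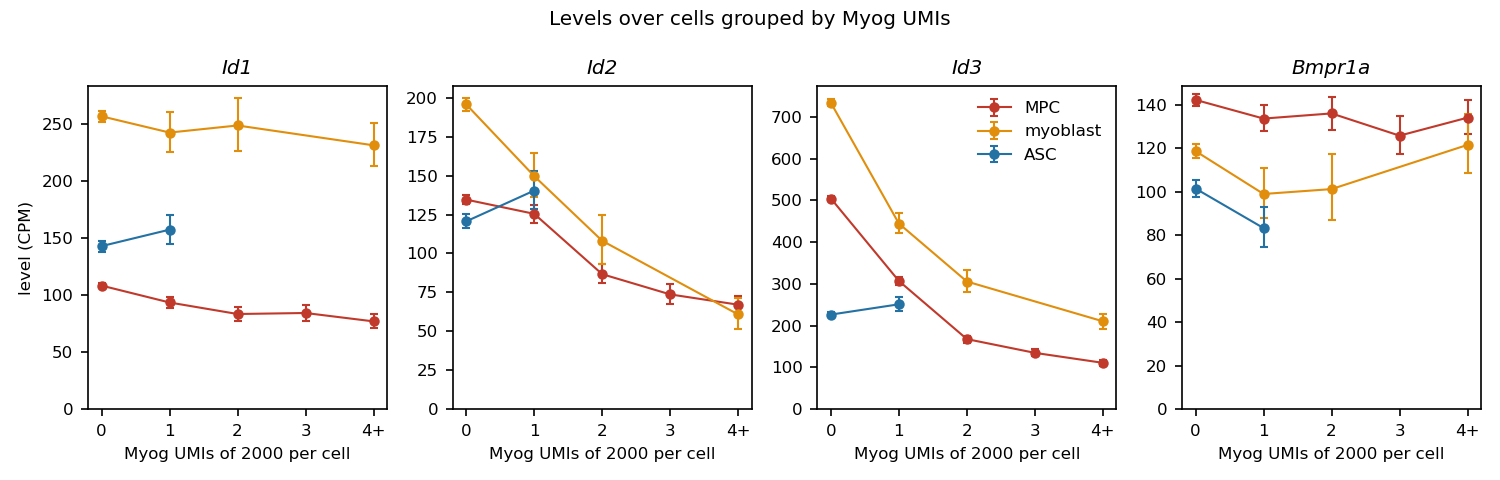
Level (CPM) of Id1, Id2, Id3 and Bmpr1a in cells grouped by the number of Myog UMIs among 2000 UMIs of the cell, for the MPC, myoblast and ASC libraries; 0 stands for Pax7-positive cells, and bins under 50 cells are left out. Bars are exact Poisson 95% intervals. Id3 runs down to 111 CPM in MPC and 210 CPM in myoblasts at 4 or more Myog UMIs, and Bmpr1a stays within a narrow range.

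Cycling over non-cycling Pax7-positive cells, none of the 8 genes met the rule in MPC, myoblasts or ASC. Over all genes, 2.52% were higher and 0.187% lower in cycling MPC, 2.98% and 0.583% in myoblasts, and 1.02% and 3.49% in ASC. Id1 was at 115 CPM in cycling and 87.3 CPM in non-cycling MPC, at 237 and 288 CPM in myoblasts, and at 140 and 180 CPM in ASC. Id3 was at 520 CPM in cycling and 453 CPM in non-cycling MPC, at 713 and 765 CPM in myoblasts, and at 218 and 323 CPM in ASC. In CPM, both genes thus were higher in cycling cells of MPC and lower in those of myoblasts and ASC, beyond counting error. At 2000 UMIs a cell the ASC order of Id1 was the other way, with a mean of 0.323 UMIs and a share of 24.0% in cycling cells, against 0.283 UMIs and 20.7% in non-cycling cells, and the shares overlapped within counting error. The Id3 shares in ASC overlapped too, at 31.9% in cycling and 38.0% in non-cycling cells, and no order is read from them. With each cell weighted equally, Id3 and Bmp4 met the rule as lower in cycling ASC. Median depths were 45303 UMIs in cycling and 14099.5 UMIs in non-cycling ASC. The part of depth was not tested.

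Id1 and Id3 were higher in the sorted cells that had more immediate early and heat shock RNA. The 17 genes of that list, which respond quickly to growth factors, cell dissociation or heat, summed to 1390 CPM in Pax7-positive MPC, 740 in myoblasts, 1488 in ASC and 34559 in fiSC. When Pax7-positive cells were split within each library into 3 bins by these UMIs, Id3 in fiSC was at 516 CPM in the low bin, 1040 in the middle and 2527 in the high bin. Id1 in fiSC was at 64.1, 82.8 and 232 CPM. Id4 was at 6.69, 10.8 and 15.7 CPM, and Smad6 at 5.31, 7.15 and 12.5 CPM. In ASC, Id1 was at 91.1, 109 and 259 CPM and Id3 at 151, 187 and 382 CPM. Id2 had a smaller span, with 115, 133 and 154 CPM in fiSC and 111, 111 and 146 CPM in ASC. In ASC, Bmpr1a was also higher in the high bin, at 91.9, 94.3 and 124 CPM. The high ASC bin had a median of 33304 UMIs and the low bin 45862.

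The cultures showed smaller steps or none. In MPC, Id3 was at 461, 520 and 572 CPM from the low to the high bin, and Id1 at 104, 117 and 110 CPM. In myoblasts, Id3 was at 723, 777 and 720 CPM. Bmp4 did not follow the bins in fiSC, with 139, 164 and 143 CPM, nor did Bmpr1a, with 145, 141 and 159 CPM. In the low fiSC bin Id3, at 516 CPM, was still above the low ASC bin at 151 CPM, but below the low myoblast bin. The bins hold different UMI ranges in each library, at most 1 UMI in the low ASC bin and up to 21 in the low fiSC bin. The part of this response in the Id levels was not tested.

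**Figure D3:**
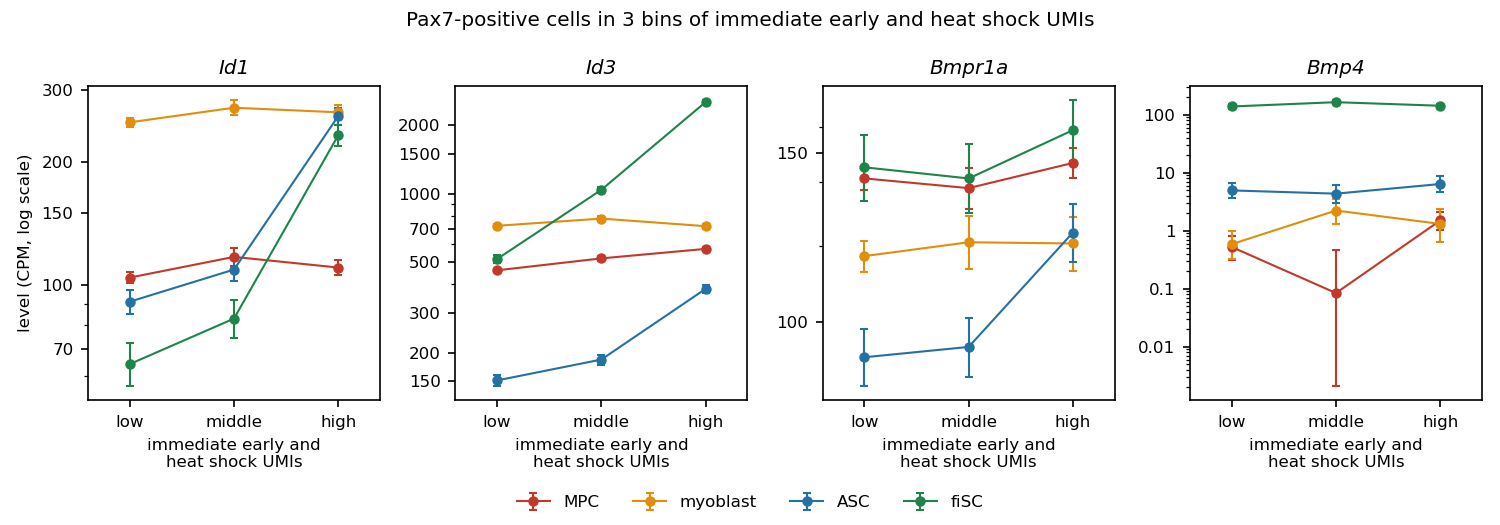
Level (CPM, log scale) of Id1, Id3, Bmpr1a and Bmp4 in Pax7-positive cells of each library, split within the library into bins of low, middle and high UMIs of 17 immediate early and heat shock genes. Bars are exact Poisson 95% intervals. Id1 and Id3 climb over the bins in ASC and fiSC, Id1 to 259 CPM in ASC and 232 CPM in fiSC and Id3 to 382 CPM in ASC and 2527 CPM in fiSC in the high bins, while Bmp4 stays near 148 CPM in fiSC.

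Fresh cells with at least 3 Pax7 UMIs had more of the Id genes and Smad6 than those with 1, and also more Bmpr1a and Bmp4. In fiSC with 1, 2 and at least 3 Pax7 UMIs, Id3 was at 995, 1390 and 1810 CPM, Id1 at 94.4, 104 and 181 CPM, and Id4 at 5.32, 9.63 and 18.0 CPM. Smad6 was at 4.33, 7.91 and 12.9 CPM. Id2 was at 120, 118 and 158 CPM, Bmpr1a at 135, 141 and 167 CPM and Bmp4 at 123, 170 and 161 CPM, so the rise was not particular to the targets. Between 1 and 2 Pax7 UMIs the intervals of Id1, Id2, Id4, Smad6 and Bmpr1a overlapped. In MPC the same bins gave 459, 497 and 553 CPM of Id3, and in myoblasts 656, 723 and 770 CPM.

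At the level of cells, Id1 was seen more often where Id3 was seen. Among thinned Pax7-positive cells with an Id3 UMI, 21.4% of MPC had an Id1 UMI, against 12.9% of those without Id3. The shares with and without Id3 were 39.2% and 29.6% in myoblasts, 38.8% and 16.0% in ASC, and 19.6% and 12.2% in fiSC. The exact binomial intervals did not overlap in any library. With a Fos UMI, Id1 was seen in 42.2% of ASC and 21.8% of fiSC, against 19.0% and 10.9% without one. In MPC these shares overlapped, at 18.9% with and 17.4% without Fos. With a UMI of Ccn1, a YAP-responsive gene, Id1 was seen in 36.0% of ASC, against 21.3% without, and in 21.4% of fiSC, against 14.5% without. In the cultures the Id1 shares with and without Ccn1 overlapped, at 21.1% and 17.4% in MPC and 37.6% and 36.0% in myoblasts. The Id3 shares with and without Ccn1 lay apart in MPC, at 66.1% and 55.9%, in ASC, at 47.2% and 30.4%, and in fiSC, at 66.5% and 58.1%. In myoblasts they overlapped, at 66.4% and 69.1%. For Bmp4 no relation was detectable at this depth, as 23.2% of fiSC cells with Id1 had a Bmp4 UMI, against 22.1% without, and so did 22.7% of those with Id3, against 21.5% without. Bmpr1a shares with and without Id1 also overlapped in all 4 libraries.

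The pathway around the 8 genes was followed with a list of 56 genes, the 8 included, all of them in the files. In ASC against fiSC, 34 were measured, 21 were lower and 1 higher. The median log2 ratio was -1.17, against 0.10 over all genes measured. Without the 8, 18 of 28 were lower and 1 higher, with a median of -1.20. Of all genes 21.4% were lower and 24.0% higher. Part of the list reached 10 CPM through fiSC alone, among them Bmp6, Chrdl2, Hey1 and Bambi, and could only be called lower, so the count and the median describe these libraries and support nothing further. The lower genes covered every role. Of the ligands, Bmp6 was at 5.80 CPM in ASC and 327 CPM in fiSC, and Bmp2 at 12.5 and 37.3 CPM. The type II receptor Bmpr2 was at 79.3 CPM in ASC and 426 CPM in fiSC. The BMP co-receptor genes Rgma and Rgmb were at 17.7 and 25.1 CPM in ASC, against 61.1 and 95.3 CPM in fiSC. The secreted antagonist Chrdl2 had 1 UMI in ASC and 2406 UMIs (184 CPM) in fiSC. Smad1 was at 41.4 CPM in ASC and 112 CPM in fiSC. Among other targets, Hey1 was at 5.26 and 45.3 CPM, and Bambi, a pseudoreceptor, at 8.62 and 23.9 CPM. The exception was the E protein gene Tcf3, at 51.3 CPM in ASC and 16.4 CPM in fiSC. Tcf4, another E protein gene, was at 256 CPM in ASC and 702 CPM in fiSC.

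The list held lower genes in both cultures against fiSC as well, 16 lower and 4 higher of 36 measured in MPC, and 16 lower and 4 higher of 36 in myoblasts. The medians were -0.51 in MPC and -0.93 in myoblasts, against 0.38 and 0.33 over all genes. Of all genes, 15.4% were lower and 28.4% higher in MPC, and 17.4% and 28.1% in myoblasts, and here too some list genes reached the minimum through fiSC alone. In MPC against ASC, 8 of 29 were higher and 4 lower, and in myoblasts against ASC 6 of 28 were higher and 2 lower. The medians were 0.47 in MPC and 0.27 in myoblasts, against 0.19 and 0.12 over all genes. Of all genes, 15.8% were higher and 6.61% lower in MPC, and 11.8% and 4.29% in myoblasts.

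MPC and myoblasts differed in both directions. Of 29 genes measured, Acvr2a, Rgma, Fstl1, Hey1 and Tcf4 were higher in MPC, and those lower included Bmpr1b, Nbl1, Smad7 and Id1, with a median of 0.11, against 0.07 over all genes, of which 7.92% were higher and 7.34% lower. The type I receptor gene Bmpr1b was at 6.89 CPM in MPC and 97.8 CPM in myoblasts. The inhibitory Smad7, a target of TGF-beta and BMP signals, was at 10.0 CPM in MPC and 57.0 CPM in myoblasts. The secreted antagonist Nbl1 was at 11.3 CPM in MPC and 62.1 CPM in myoblasts. On the other side Hey1, also a Notch target, was at 46.3 CPM in MPC and 1.57 CPM in myoblasts, Rgma at 68.7 and 6.09 CPM, and Tcf4 at 1270 and 365 CPM.

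Between Myog-positive and Pax7-positive cells the genes called included secreted antagonists and a co-receptor. Hjv, the hemojuvelin co-receptor gene known from striated muscle, was at 38.0 CPM in Myog-positive and 3.39 CPM in Pax7-positive MPC, and at 85.2 and 0.936 CPM in myoblasts. Fst, the antagonist follistatin, was at 11.3 and 2.69 CPM in MPC, and at 125 and 9.96 CPM in myoblasts. Nog, the antagonist noggin, met the rule in myoblasts, at 17.7 CPM in Myog-positive and 2.53 CPM in Pax7-positive cells. Grem1 was lower in Myog-positive cells, at 3.29 and 12.9 CPM in MPC and at 2.18 and 30.7 CPM in myoblasts. Fstl1, listed with the antagonists, was lower too, at 49.5 and 216 CPM in MPC and at 21.2 and 89.8 CPM in myoblasts. Of 5 antagonists measured in MPC, 1 was higher and 2 lower, and of 7 in myoblasts, 2 were higher and 3 lower. In MPC, 2 of 29 list genes were higher and 5 lower, in myoblasts 3 of 31 were higher and 6 lower, and in ASC 0 of 25 were called. The shares over all genes were 5.31% higher and 7.35% lower in MPC, 7.78% and 11.9% in myoblasts, and 0.682% and 0.207% in ASC, so the counts of higher genes lay near the background. The medians were -0.41 in MPC, -0.30 in myoblasts and -0.12 in ASC, against -0.14, -0.26 and -0.07 over all genes. Over cycling and non-cycling cells, Gdf6 in myoblasts and Fstl1 in ASC were lower, and no list gene met the rule in MPC.

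**Figure D4:**
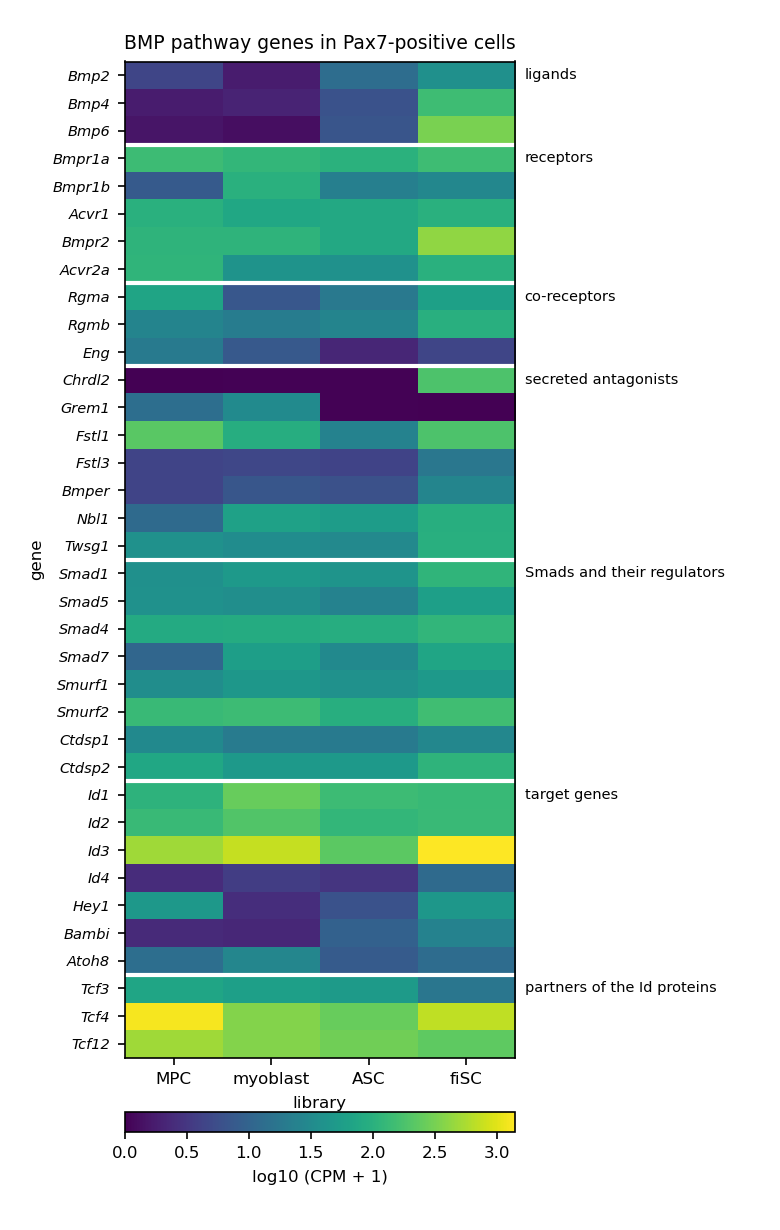
Levels of 36 genes of the BMP list with at least 10 CPM in a library, in Pax7-positive cells of the MPC, myoblast, ASC and fiSC libraries, grouped by role from ligands to partners of the Id proteins. Colour is log10 of CPM plus 1. The fiSC column is brightest for Bmp6, Bmpr2, Chrdl2 and Id3, at 327, 426, 184 and 1401 CPM.

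Levels over 14 classes and libraries of at least 50 cells were compared with those of 9008 genes by Pearson's r of log2(CPM plus 5), as a description, since classes of a library share its cells' source and depth. The genes most like Id1 were Ttc33 (0.95), Dynap (0.94), Scrn1 (0.93), Cdh18 (0.93) and Fam189a1 (0.92). Those most like Id3 were F2r (0.92), Tcaf2 (0.92), Nckap1 (0.92), Adam9 (0.91) and Phf3 (0.91). Id1 and Id3 themselves had an r of 0.19 over the same points, Id1 and Smad9 0.83, and Id3 and Smad6 0.67. Smad9 ran from 0.296 to 3.19 CPM over the points and Smad6 from 2.36 to 15.5 CPM. Both stayed under the 20 CPM asked of the ranked genes, so their r rests on low counts.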

How the data were processed

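The authors deposited whole-number UMI counts per gene and cell barcode for 4 libraries made with the 10x 3' v3.1 kit, per the labels' protocols. STAR 2.7.10b and build GRCm39 are named in the submitters' processing notes. The cell calling and the annotation are not given in the sources used here. The deposited counts held 171748476 UMIs in 11847 barcodes for MPC, 60415378 in 2993 for myoblasts, 199488336 in 10818 for ASC and 21434933 in 2705 for fiSC. The 25828 features carry 25804 symbols, and features that share a symbol were summed.

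Barcodes were kept from 1000 UMIs and 500 genes upward if no more than 10% of the UMIs were mitochondrial. Scrublet, as in scanpy 1.11.5, scored doublets. Where the automatic threshold marked 0.5% of cells or more, as in ASC, it was kept, and otherwise the top scores at an expected 0.8% per 1000 cells were removed, which left out 799 MPC, 47 myoblasts, 297 ASC and 59 fiSC. Cells with at least 2000 UMIs were thinned to 2000 for class calls and shares. Macrophage-high cells (at least 10 UMIs of 14 markers) were set apart first. Levels are full UMIs summed over a class, in CPM, with exact Poisson 95% intervals. Shares have exact Clopper-Pearson intervals. Both cover counting error only. A gene was called at a 2-fold ratio of CPM plus 5 with at least 10 CPM in the higher class, in classes of at least 50 cells. With 1 library per group there is no test and no p-value. Python 3.11.15, numpy 2.4.6, scipy 1.17.1, pandas 2.3.3 and matplotlib 3.10.9 were used, and TMM factors came from edgeR 4.0.16 in R 4.3.3. The scripts were tested on simulated data.

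The 8 genes, the BMP list, the markers and the motifs were chosen with earlier results of these data known. Genes named are the 8, BMP list genes called in the comparison described (1 list gene, kept in the counts and medians, is not reported here by name), and the 5 genes with the highest r to Id1 and to Id3, among those with at least 20 CPM in a class. Tcf3 and Tcf4 are partners of the Id proteins in that list. Leaving out barcodes shared between libraries was added after seeing the data. So were non-cycling cells alone between libraries, non-cycling cells alone for the Myog comparison, and cycling cells alone for that comparison in ASC.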

Additional observations from a re-analysis of the deposited data

Results flagged for a closer look

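Myog-positive over Pax7-positive cells, Id1, Id2 and Id3 ran one way in ASC and the other way in both cultures. None of these differences between libraries was tested, and each rests on 1 library a group. The log2 ratio of Id1 was 0.23 in ASC, -0.32 in MPC and -0.10 in myoblasts. For Id2 it was 0.35 in ASC, -0.49 in MPC and -0.82 in myoblasts. For Id3 it was 0.14 in ASC, -1.30 in MPC and -1.16 in myoblasts. The 105 Myog-positive ASC cells are few, and 80 of them rest on 1 Myog UMI. The classes were also unlike, with 84.8% of Myog-positive cells cycling in ASC, 44.3% in MPC and 16.8% in myoblasts. Their 10 markers of differentiating muscle summed to 866, 12342 and 30934 CPM in the same order. The part of these differences was not tested.

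Cycling over non-cycling Pax7-positive cells, Id1 and Id3 were higher in CPM in MPC and lower in myoblasts and ASC, and this difference was not tested either. The log2 ratio of Id1 was 0.38 in MPC, -0.27 in myoblasts and -0.36 in ASC. That of Id3 was 0.20 in MPC, -0.10 in myoblasts and -0.56 in ASC. The ASC direction of Id1 held in CPM and not at 2000 UMIs a cell, where Id1 averaged 0.323 UMIs in cycling and 0.283 in non-cycling ASC. For Id3 the highest of the 92 non-cycling cells had 34 UMIs of 2000.

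Id2 appeared in cells outside the comparisons. Macrophage-high ASC cells, which enter none of them, had 378 CPM of Id2, above the 121 CPM of Pax7-positive ASC.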

How the results depend on the processing

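The results were recomputed under 22 alternative settings, not all of which apply to each result. Thinning to 4000 UMIs for co-detection served that result alone. Of 445 counts, 418 stayed within 1.5 times the reported count and 27 did not. Most are counts of called members. The others count levels at 10 CPM or more and libraries where Id1 was seen more often with Id3. Counts of 0 that stayed 0 are among the 418. Of 235 ratios of called members, 0 were reversed. Settings that alter only the fold or the minimum CPM leave the ratio as it is, so they could not reverse it. With a 3-fold rule, 0 members were lower in MPC against myoblasts, 1 was lower in MPC against fiSC and in myoblasts against fiSC (Bmp4), 0 were higher in MPC against ASC, and 0 were lower in Myog-positive cells of MPC or myoblasts. With a 1.5-fold rule, 3 were higher in myoblasts against ASC (Id1, Id2 and Id3), 1 was higher in myoblasts against fiSC (Id1), and 2 were lower in Myog-positive myoblasts (Id2 and Id3). With TMM scaling, 0 were higher in MPC against ASC and 0 lower in Myog-positive myoblasts. Before the pseudocount was added, TMM moved every log2 ratio by -0.34 in MPC against fiSC and -0.28 in myoblasts against fiSC. The shift was -0.18 in MPC against ASC, -0.16 in ASC against fiSC and -0.12 in myoblasts against ASC. It was 0.16 in Myog-positive MPC and 0.28 in Myog-positive myoblasts. The ratios of CPM plus 5 need not move by the same amount. With each cell weighted equally, 0 were higher and 1 lower (Bmp4) in MPC against ASC, 1 was lower in myoblasts against ASC (Bmp4), 1 was higher in myoblasts against fiSC (Id1) and 2 were lower in cycling ASC (Id3 and Bmp4). Among non-cycling cells alone, 0 were higher and 1 lower (Id1) in MPC against ASC, 1 was higher in myoblasts against fiSC (Id1), and 2 were lower in Myog-positive cells of MPC and of myoblasts (Id2 and Id3). A pseudocount of 10 or a minimum of 20 CPM left 1 lower in myoblasts against fiSC (Bmp4). Classes called at 4000 UMIs gave 2 higher in myoblasts against ASC (Id3 and Smad6) and 0 lower in Myog-positive myoblasts. Myog-positive from 2 UMIs gave 2 lower in myoblasts (Id2 and Id3). Cells from 5000 UMIs and at most 5% mitochondrial gave 0 lower in Myog-positive MPC. The cause of these shifts was not tested, except that a 3-fold or 1.5-fold rule alters the count by construction. Over all settings the log2 ratio of Bmp4 ran from -4.60 to -3.36 in ASC against fiSC, and that of Id3 from -2.85 to -2.11. No paired analysis was possible because each group has 1 library and the replicate numbers only name them. The cycling comparison in fiSC was not run, with 15 cycling cells. Depth limits Smad6, Smad9 and Id4, which had few UMIs outside the largest classes.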

Other observations

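The remaining cells of MPC, myoblasts and fiSC, with neither Pax7 nor Myog UMIs, differed from Pax7-positive cells in some of the 8 genes and in markers of other cell types. In ASC the 2056 remaining cells were closer to the 596 Pax7-positive ones. Their muscle progenitor markers summed to 812 CPM, against 963 CPM in Pax7-positive ASC, and their fibroblast markers to 54.2 and 37.9 CPM. The 10 fibroblast markers summed to 385 CPM in remaining and 106 CPM in Pax7-positive MPC, 241 and 72.4 CPM in myoblasts, and 953 and 338 CPM in fiSC. In fiSC the mural markers summed to 194 CPM in remaining and 12.1 CPM in Pax7-positive cells, and the endothelial ones to 110 and 12.0 CPM. Smad6 was at 11.3 CPM in these MPC and 15.5 CPM in these myoblasts, above every other class described of the same library. The antagonist gene Grem1 was at 85.2 CPM in remaining and 12.9 CPM in Pax7-positive MPC, and at 65.9 and 30.7 CPM in the same classes of myoblasts. In fiSC, Id3 was at 706 CPM in remaining and 1401 CPM in Pax7-positive cells, while Bmpr1a was at 147 and 149 CPM. None of these differences was tested, nor was the part of other cell types in them.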
